A study of Homo sapiens with 4 samples.

Results

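The genes described here carry a LINC name followed by digits, the systematic name given to long intergenic non-coding RNAs (lncRNAs), and were detected in T24 cells. T24 is a line from a human bladder carcinoma. RNAseq was done on cells with an empty vector (EV, labelled control, 2 libraries) and on cells with the catalytic domain of TET1 (TET1-CD, 2 libraries). According to the study's methods, the catalytic domain was cloned in a lentiviral pCDH-3×FLAG vector and infected cells were selected with puromycin. The methods do not say whether the lines are clones or which promoter drives the insert, and the labels do not say whether the 2 libraries of a group come from separate cultures, so that p-values may measure technical spread alone. The members were chosen by their estimated counts alone: a LINC gene counted as detected when these, summed over transcripts and over the 4 libraries, reached 40. Of 614 LINC genes among the 57879 genes in the files, 81 (13.2%) were detected, 173 had fewer than 40 counts but not 0, and 360 were listed at 0 in every library. All 81 also passed edgeR's filter on low counts and were tested among 14573 genes.

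LncRNAs are transcribed and often spliced and polyadenylated like mRNAs, but have no long reading frame. Some act in the nucleus on chromatin or transcription, others bind proteins or microRNAs in the cytoplasm, and several first named as LINC RNAs were later found to encode small proteins. Many start next to a gene on the other strand, from a shared promoter. TET1 oxidizes 5-methylcytosine at CG dinucleotides, the first step of active DNA demethylation, and its catalytic domain is enough for this reaction.

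TET1 itself had 111 and 83 counts in EV against 2939 and 3310 in TET1-CD libraries. Libraries held between 17442143 and 20295266 counts. Of the 15 urothelial and epithelial markers examined, 7 had enough counts for the test. KRT7, KRT8 and KRT18 were abundant, CDH1 had at most 2 counts in a library, and KRT5 and KRT20 were listed at 0. All 5 mesenchymal markers were tested, VIM and FN1 being abundant, and of the blood cell markers PTPRC, CD3E and HBB had at most 2 counts in a library, while the monocyte marker CD14 had between 8 and 15 and was tested (log2 fold change -0.47). The summed normalized count of the mesenchymal list was between 139383 and 139875 in EV and between 111275 and 115192 in TET1-CD cells, with 2 of 5 genes lower (9.61% of all genes) and none higher at an adjusted p under 0.05. For the epithelial list it was between 43935 and 44290 in EV and between 49347 and 50024 in TET1-CD cells, with 4 of 7 tested genes higher (10.0% of all genes) and none lower. VIM and FN1 held most of the mesenchymal sum, while CDH2, SPARC and ZEB1 had log2 fold changes of -0.04, -0.09 and 0.09. KRT7, KRT8 and KRT18 held most of the epithelial sum, with log2 fold changes of 0.34, -0.08 and 0.18. The sums thus rest on few genes and do not show a shift of every marker. The part of these shifts in the results below was not tested. The labels name poly(A) selection or rRNA removal without saying which was used, and the files do not say whether counting used strand, so reads of genes that overlap on opposite strands cannot be told apart.

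The LINC genes together took between 0.103% and 0.110% of a library. LINC00657, now named NORAD, an abundant cytoplasmic RNA that binds PUMILIO proteins, held between 48.6% and 52.3% of these counts. Without it the share was between 0.0523% and 0.0529% in the 4 libraries. The median LINC gene had 217 counts over the 4 libraries, against 1835 for all genes tested. Fewer than 100 counts were found for 28 LINC genes, and 1000 or more for 13. Per length of transcript (FPKM, fragments scaled to transcript length and library size), the median LINC gene was at 1.71, and the median of 12529 protein-coding genes tested was at 12.2. Of the 81, 28 were under an FPKM of 1 and 11 at 10 or more.

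In the order of mean FPKM, NORAD stood first, with 106 and 107.2 in EV against 93.5 and 94.9 in TET1-CD libraries. LINC00998, which encodes the small membrane protein SMIM30, came next, with an FPKM of 45.6 and 48.7 in EV against 39.6 and 39.9 in TET1-CD. LINC00493, which encodes the mitochondrial protein SMIM26, had an FPKM of 36.03 and 40.02 in EV against 42.17 and 37.56 in TET1-CD. The libraries of LINC00493 lay within those of the gene below it, LINC00152 (CYTOR), a cytoplasmic RNA studied in cell migration, with an FPKM of 38.06 and 34.22 in EV against 38.27 and 43.98 in TET1-CD. LINC00958, also called BLACAT2 for bladder cancer-associated transcript, had an FPKM of 30.3 and 28.6 in EV against 27.9 and 31.1 in TET1-CD. LINC00116, which encodes the micropeptide mitoregulin of the inner mitochondrial membrane, had an FPKM of 20.7 and 27.4 in EV against 33.9 and 26.5 in TET1-CD. The first gap in this order that no library crossed was that between NORAD and SMIM30. At the lower end, LINC00664 had a mean FPKM of 0.22.

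**Figure D1:**
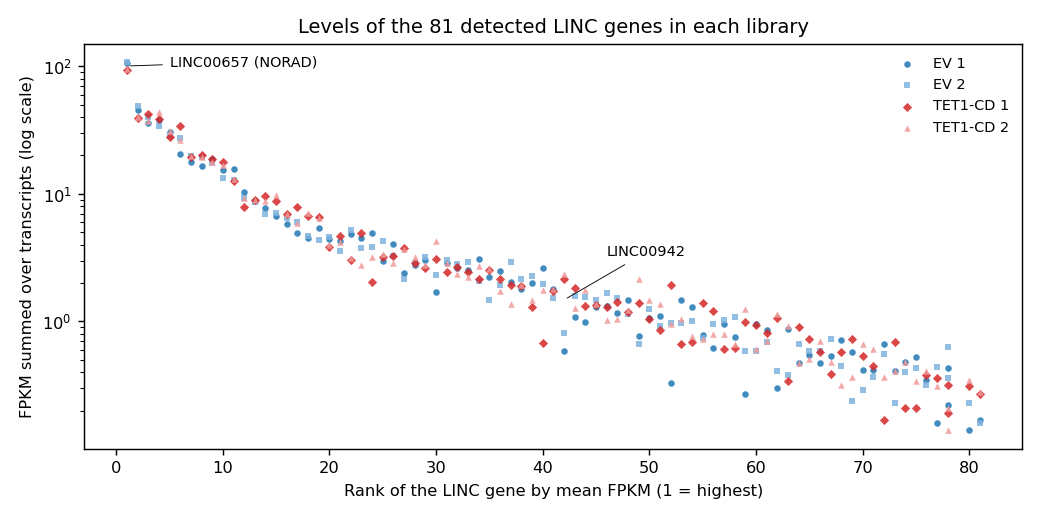
FPKM of the 81 detected LINC genes (vertical, log scale) by rank of mean FPKM (horizontal), with 1 point for each of the 2 EV and 2 TET1-CD libraries. NORAD lies near 100 in all libraries and the median gene at 1.71, and the points of the libraries spread apart below an FPKM of 1.

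To see whether TET1-CD moved LINC RNAs, edgeR's quasi-likelihood test was run between the groups, and p-values were adjusted over all 14573 genes. A gene was called when it changed 2-fold or more and its adjusted p was under 0.05. Of the 81 LINC genes, 3 were called (3.70%), all of them higher in TET1-CD, against 3.77% of all genes tested. The share called among the LINC genes was thus close to that among all genes. Of all genes, 2.72% were called higher and 1.04% called lower. At an adjusted p under 0.05 with no limit on the fold change, 5 LINC genes were higher (10.0% of all genes) and 5 were lower (9.61% of all genes), together 12.3% of the LINC genes against 19.7% of all genes. Counts were lower and errors larger among LINC genes, with a median standard error of the log2 fold change of 0.24 against 0.09. With the unadjusted p in its place, 5 LINC genes passed together with a 2-fold change (4 higher and 1 lower), against 4.89% of all genes. Without TET1-CD replicate 1, 1 LINC gene was called, beside 323 of all 15179 genes then tested. Without EV replicate 2, 5 LINC genes were called, beside 617 of 15201, so the calls over all genes (549 in the full set) moved the same way.

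The log2 fold changes of the LINC genes ran from -1.07 to 1.69, with a median of -0.04 against 0.001 for all genes. Higher values in TET1-CD were found for 39 and lower values for 42. For 54 the log2 fold change was under 0.5 in size, and for 7 it was 1 or more. The normalized counts of both TET1-CD libraries lay above both EV libraries for 20 LINC genes and below them for 24, together 54.3%, against 61.0% of all genes. At least 20 counts in each group were found for 72 of the 81 genes. The filter was passed with fewer than 20 counts in EV by 5 genes and with fewer than 20 in TET1-CD by 4, and none of these 9 was called. The filter works on each library and not on these sums. The called gene LINC01111, which is not among the 9, also passed it through the TET1-CD libraries, where it is high.

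**Figure D2:**
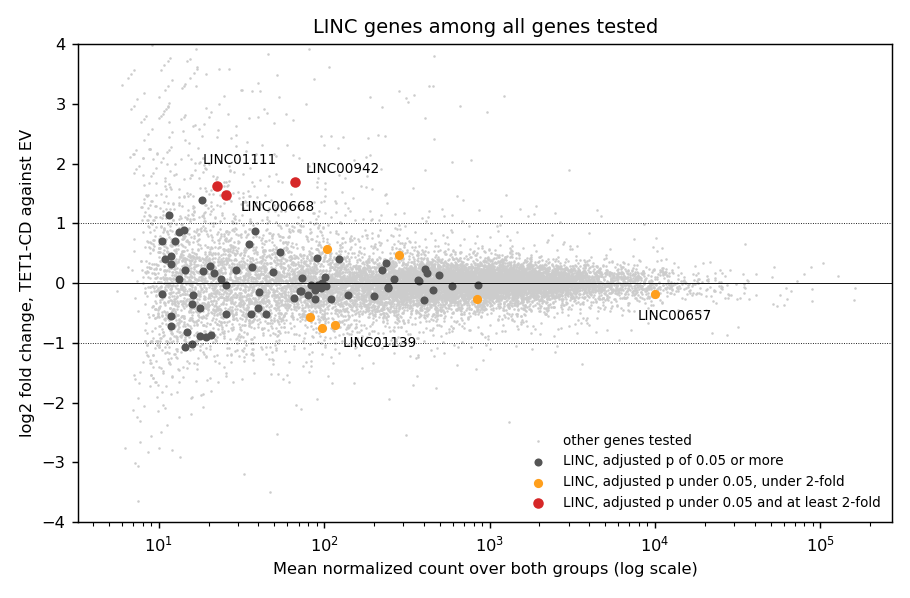
log2 fold change of TET1-CD against EV (vertical) by mean normalized count (horizontal, log scale) for the genes tested, with LINC genes as larger points coloured by the outcome of edgeR's test and dotted lines at a fold change of 2. The 3 called LINC genes lie above the upper line at low counts, NORAD lies at the far right at -0.19, and 60 other genes fall outside the vertical range.

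LINC00942 showed the largest change and is the best supported of the 3 called genes. The files place it on the minus strand of chromosome 12, from 1609691 to 1616484 on GRCh37, with a single transcript. The EV libraries held 29 and 34 counts of it and the TET1-CD libraries 91 and 111. Both TET1-CD libraries were thus far above both EV libraries. After normalization the mean was 31.7 ± 7.02 in EV against 101.3 ± 6.28 in TET1-CD (SD, n = 2 each), a log2 fold change of 1.69 (standard error [SE] 0.22, 3.22-fold, adjusted p = 7.37e-04). It was called under each alternative test, filter and scaling tried and without each library in turn, with log2 fold changes between 1.46 and 1.92 and adjusted p-values of at most 0.0100. The tested gene nearest by the Start column, WNT5B, had a log2 fold change of -0.09 (SE 0.07, adjusted p = 0.429).

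LINC01111, on chromosome 8 from 77318889 to 77436591 on the plus strand, had 10 and 12 counts in EV against 31 and 37 in TET1-CD libraries. Scaled to library size, its count in EV replicate 1 fell under the limit of edgeR's filter. It thus passed the filter on low counts through the TET1-CD libraries, where it is high. With 10 counts required in every library instead, it was tested and called (adjusted p = 0.0065 by edgeR). The groups did not overlap. The log2 fold change was 1.63 (SE 0.37, 3.09-fold, adjusted p = 0.0134). Without TET1-CD replicate 1 its adjusted p was 0.106, without TET1-CD replicate 2 it was 0.132, and with DESeq2 on all libraries it was 0.130. It overlaps ZFHX4-AS1 on the minus strand, which had 11 and 14 counts in EV against 5 and 13 in TET1-CD libraries, with a log2 fold change of -0.47 (SE 0.55, adjusted p = 0.604). Of the 10 LINC genes with an adjusted p under 0.05, LINC01111 was the only one that overlapped a tested gene.

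LINC00668, on chromosome 18 from 6919495 to 6929965 on the minus strand, had 15 and 12 counts in EV against 31 and 44 in TET1-CD libraries. Here too the groups did not overlap. The log2 fold change was 1.48 (SE 0.34, 2.78-fold, adjusted p = 0.0149). Its adjusted p was 0.0778 without TET1-CD replicate 1, 0.187 without TET1-CD replicate 2 and 0.148 with DESeq2 on all libraries. The files list 8 transcripts for it, of which the most abundant held 51.0% of the counts. The tested gene nearest by the Start column, LAMA1, codes for a laminin chain of the basement membrane and lies 22248 bases away by that column. LAMA1 runs from 6941743 to 7117813 on the minus strand, so the Start column gives its 3′ end. The 5′ ends of the 2 genes lie further apart. LAMA1 had 131 and 86 counts in EV against 173 and 188 in TET1-CD, a log2 fold change of 0.76 (SE 0.15, adjusted p = 0.00771), higher but under 2-fold.

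Of the 7 LINC genes that passed on adjusted p alone, 2 were higher in TET1-CD. LINC00973 had 88 and 79 counts in EV against 112 and 134 in TET1-CD libraries (log2 fold change 0.57, SE 0.15, adjusted p = 0.0274). LINC00883, now named DUBR, had 280 and 202 counts in EV against 311 and 345 in TET1-CD libraries (log2 fold change 0.47, SE 0.11, adjusted p = 0.0175). The remaining 5 were lower. In all 7 the normalized counts of the groups did not overlap, as in 61.0% of all genes. With 2 libraries in each group, selection by p favours such genes, so this adds no further evidence.

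LINC01139, known as LINK-A and studied in kinase signalling, had 151 and 139 counts in EV against 81 and 95 in TET1-CD libraries (log2 fold change -0.71, SE 0.15, adjusted p = 0.00861). LINC00704, named MANCR for a mitotically associated RNA, had 148 and 98 counts in EV against 53 and 92 in TET1-CD libraries (log2 fold change -0.75, SE 0.22, adjusted p = 0.0405). LINC00899 had 112 and 85 counts in EV against 62 and 69 in TET1-CD libraries (log2 fold change -0.57, SE 0.17, adjusted p = 0.0458). These 3 were lower by between 1.48-fold and 1.68-fold. The abundant SMIM30 gene LINC00998 had 946 and 885 counts in EV against 713 and 804 in TET1-CD libraries (log2 fold change -0.26, SE 0.07, adjusted p = 0.0311). NORAD had 11483 and 9983 counts in EV against 8741 and 9899 in TET1-CD libraries, or 10684 ± 124.8 and 9365 ± 89.1 normalized counts (SD, n = 2), a log2 fold change of -0.19 (SE 0.05, adjusted p = 0.0264). NORAD and SMIM30 therefore differed by less than 1.2-fold, with errors small enough for the test to separate the groups.

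The number of LINC genes with an adjusted p under 0.05 depended on the libraries and on the test, and so did the number called over all genes. DESeq2 on all 4 libraries called 332 of 25160 genes, against 549 of 14573 with edgeR. With DESeq2 on all 4 libraries it was 2, LINC00942 and NORAD, and the adjusted p was 0.120 for LINC01139, 0.131 for LINC00883, 0.182 for LINC00998, 0.197 for LINC00704, 0.323 for LINC00973 and 0.417 for LINC00899. With edgeR it was 9 without EV replicate 1 and 14 without EV replicate 2, but 1 without TET1-CD replicate 1 and 2 without TET1-CD replicate 2, while directions were kept. Without TET1-CD replicate 1, the adjusted p of LINC01139 was 0.0872, that of LINC00883 0.130, that of LINC00998 0.245 and that of NORAD 0.342. Without TET1-CD replicate 2 these values were 0.0526, 0.116, 0.174 and 0.249. LINC00973, LINC00704 and LINC00899 were also lost without EV replicate 1, at 0.0653, 0.148 and 0.157, and without TET1-CD replicate 1, at 0.130, 0.303 and 0.228. Without TET1-CD replicate 2, LINC00704 was kept at 0.0247 with a log2 fold change of -1.11, while LINC00973 was at 0.193 and LINC00899 at 0.210.

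**Figure D3:**
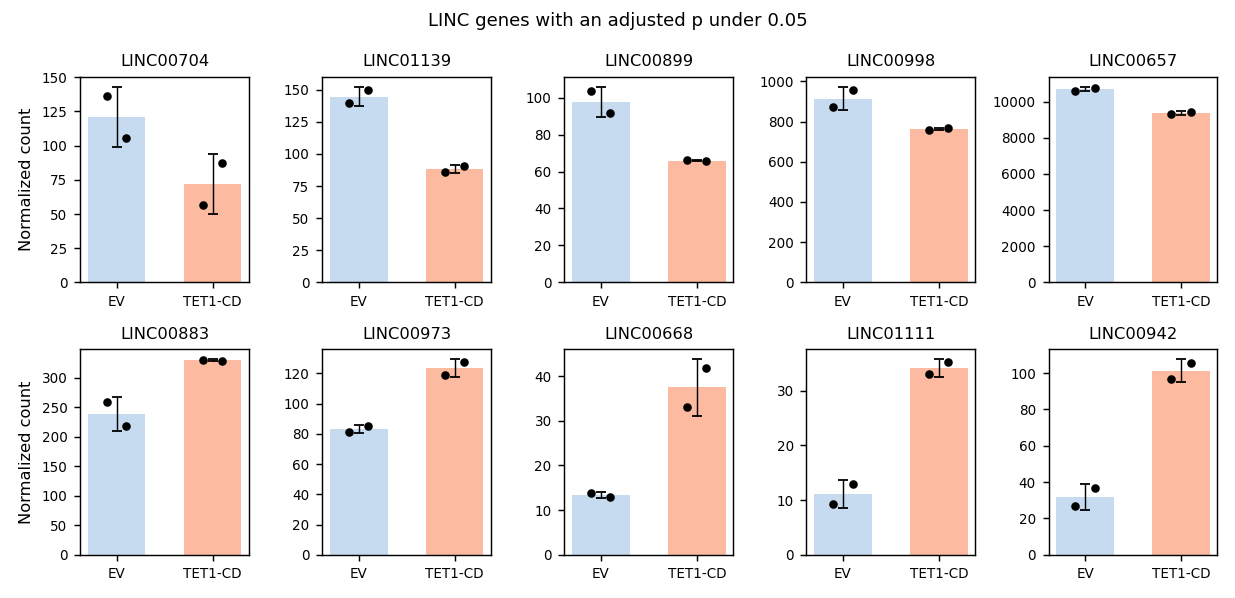
Normalized counts of the 10 LINC genes with an adjusted p under 0.05, each panel on its own axis from 0, with points for the 2 libraries of a group, bars for their mean and error bars for the SD. In each panel the points of EV and TET1-CD do not overlap, which selection by p favours. LINC00668, LINC01111 and LINC00942 rise from means of 13.4, 11.1 and 31.7 to 37.4, 34.1 and 101.3.

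LINC01096 and LINC00632, singled out after their values were seen, missed the threshold. LINC01096, which starts beside the homeobox gene NKX3-2, had 7 and 13 counts in EV against 22 and 31 in TET1-CD libraries (log2 fold change 1.397, SE 0.45, adjusted p = 0.0533). LINC01096 passed the filter on low counts through the TET1-CD libraries, where it is high. LINC00632 had 25 and 29 counts in EV against 39 and 60 in TET1-CD libraries (log2 fold change 0.87, SE 0.30, adjusted p = 0.0652). LINC00632 lies on the X chromosome from 139791932 to 139854844 on the plus strand. The called gene CDR1 lies beyond its end on the minus strand, from 139865425 to 139866723, and had 8 and 17 counts in EV against 39 and 39 in TET1-CD libraries (log2 fold change 1.64, SE 0.41, adjusted p = 0.0205). In GENCODE release 44 on GRCh37, LINC00632 runs to 139875380 and so spans CDR1, and without strand the reads of both cannot be told apart.

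The sequences before the starts of the changed genes are shown because TET1 acts on CG dinucleotides. Each is the 300 bases from 250 before to 50 after the gene's start in RefSeq on GRCh38.p14, 5′ to 3′ on the strand of the gene, with each CG in capitals. They are those of the called genes LINC00942 (chr12:1500241-1500540, plus strand) and LINC00668 (chr18:6929820-6930119, minus strand), and of MANCR (LINC00704, chr10:4678021-4678320, minus strand), LINC00899 (chr22:46044819-46045118, minus strand) and NORAD (LINC00657, chr20:36050911-36051210, minus strand), which were lower.
LINC00942: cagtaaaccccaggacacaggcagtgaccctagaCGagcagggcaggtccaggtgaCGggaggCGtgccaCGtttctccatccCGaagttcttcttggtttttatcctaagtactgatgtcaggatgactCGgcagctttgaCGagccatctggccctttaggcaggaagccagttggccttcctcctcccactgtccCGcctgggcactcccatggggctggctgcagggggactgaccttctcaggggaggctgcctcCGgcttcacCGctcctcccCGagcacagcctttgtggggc
LINC00668: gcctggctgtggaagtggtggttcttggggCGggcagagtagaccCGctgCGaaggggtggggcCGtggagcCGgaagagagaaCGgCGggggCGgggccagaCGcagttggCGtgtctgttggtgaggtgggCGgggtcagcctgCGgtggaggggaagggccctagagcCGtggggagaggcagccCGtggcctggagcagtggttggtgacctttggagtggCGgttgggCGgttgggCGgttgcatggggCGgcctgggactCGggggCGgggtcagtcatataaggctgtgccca
LINC00704: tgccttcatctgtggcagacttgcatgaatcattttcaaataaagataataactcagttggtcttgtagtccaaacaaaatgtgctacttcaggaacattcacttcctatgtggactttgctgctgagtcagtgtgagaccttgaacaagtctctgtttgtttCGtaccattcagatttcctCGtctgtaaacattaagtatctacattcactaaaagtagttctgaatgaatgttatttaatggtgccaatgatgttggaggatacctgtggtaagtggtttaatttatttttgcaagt
LINC00899: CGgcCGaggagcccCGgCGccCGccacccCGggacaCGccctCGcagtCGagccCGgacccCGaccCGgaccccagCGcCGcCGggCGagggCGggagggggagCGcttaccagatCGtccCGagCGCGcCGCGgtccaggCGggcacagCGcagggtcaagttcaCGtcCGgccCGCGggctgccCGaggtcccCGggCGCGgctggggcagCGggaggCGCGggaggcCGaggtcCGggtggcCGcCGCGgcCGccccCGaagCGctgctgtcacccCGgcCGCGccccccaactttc
LINC00657: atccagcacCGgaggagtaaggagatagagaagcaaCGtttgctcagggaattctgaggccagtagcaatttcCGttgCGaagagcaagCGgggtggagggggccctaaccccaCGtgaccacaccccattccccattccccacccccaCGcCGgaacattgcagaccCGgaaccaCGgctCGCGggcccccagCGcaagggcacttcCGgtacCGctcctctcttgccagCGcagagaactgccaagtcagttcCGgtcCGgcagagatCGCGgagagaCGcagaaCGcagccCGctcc
CG was counted as the letters CG, which read the same on both strands. The promoters of the 2 called genes held 11 CG (LINC00942) and 20 CG (LINC00668), and those of the lower genes 2 CG (MANCR), 48 CG (LINC00899) and 23 CG (NORAD). Of the other genes with an adjusted p under 0.05, the promoter of LINC00998 (lower) held 22 CG and that of LINC00973 (higher) 7 CG, and their sequences are not shown. RefSeq places LINC00942 on the plus strand and the files on the minus strand, so the sequence shown precedes the RefSeq start and not the start given by the files. LINC01111, LINC01139 and LINC00883 had no entry.

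A promoter was found for 63 of the 81 detected and for 365 of the 533 other LINC genes. The median promoter of the detected genes held 21 CG (interquartile range 8.50 to 33.0), against 4 for the other LINC genes and 14 for the 27305 promoters of the table, of which 1135 held none. An observed-to-expected CG ratio of at least 0.6, that is the number of CG times the length over the product of the numbers of C and G, was found in 40 of 63 (63.5%), 80 of 365 (21.9%) and 49.0%, respectively. The letters TATAAA, on either strand, were found in 7.94% of the promoters of detected and 16.7% of those of the other LINC genes, and in 11.95% of the table. Detected LINC genes thus had promoters richer in CG than LINC genes under 40 counts, a description for which no test was run.

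The changes are given here by CG content, with no test of a difference between the classes. Among the 40 with a ratio of at least 0.6, 19 had higher and 21 lower values in TET1-CD, with a median log2 fold change of -0.03, and 4 passed at an adjusted p under 0.05 (1 higher and 3 lower), against 19.7% of all genes. Among the 23 under that ratio, 13 had higher and 10 lower values, with a median of 0.03, and 3 passed (2 higher and 1 lower). Of the 3 called genes, 1 was in each class and LINC01111 had no promoter entry. LINC00942, in the class with the lower ratio, was placed by its RefSeq promoter, which does not precede the start given by the files. Strand was not used in matching promoters to genes.

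**Figure D4:**
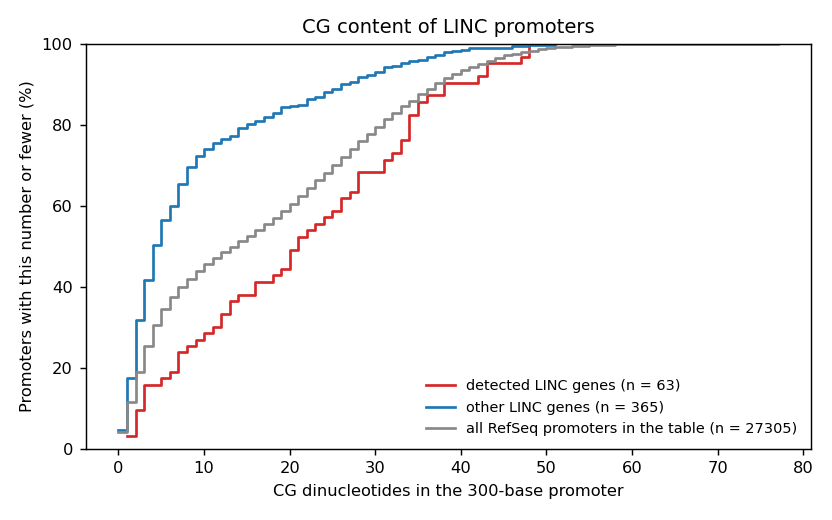
Cumulative share of promoters (vertical, %) by the number of CG dinucleotides in 300 bases (horizontal) for detected LINC genes, other LINC genes and all promoters of the RefSeq table. The line of the detected genes lies to the right of that of the other LINC genes, with medians of 21 and 4, and the table's median is 14.

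GENCODE classed 6 of the 81 detected LINC genes as protein-coding, 3 as transcribed unprocessed pseudogenes and 1 as an unprocessed pseudogene. Not all detected LINC genes are thus lncRNAs by this class. The list of small protein genes used here does not cover all 6. Of the 10 genes on it, 3 were detected, and 1 of these passed the test. This was SMIM30 (LINC00998), described above. Mitoregulin (LINC00116) had 194 and 222 counts in EV against 276 and 242 in TET1-CD libraries, a log2 fold change of 0.33 (SE 0.16, adjusted p = 0.189). Its log2 fold change was 0.54 without EV replicate 2, where it passed (adjusted p = 0.0133), and 0.12 without EV replicate 1. SMIM26 (LINC00493) had 369 and 351 counts in EV against 372 and 370 in TET1-CD libraries, a log2 fold change of 0.06 (SE 0.10, adjusted p = 0.745), with overlapping groups. The median log2 fold change of the 3 was 0.06.

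Of 19 listed LINC RNAs with studied roles, many of them in cancer cells, 13 were detected, with 7 higher and 6 lower values and a median log2 fold change of 0.03 against 0.001 for all genes. NORAD was the only one of the 13 with an adjusted p under 0.05, against 19.7% of all genes. The bladder cancer transcript LINC00958 had 682 and 540 counts in EV against 526 and 638 in TET1-CD libraries, a log2 fold change of -0.05 (SE 0.08, adjusted p = 0.703), with overlapping groups. CYTOR (LINC00152) had a log2 fold change of 0.17 (SE 0.10, adjusted p = 0.277), and its libraries overlapped between groups. LINC00460 had 31 and 24 counts in EV against 41 and 45 in TET1-CD libraries, a log2 fold change of 0.66 (SE 0.27, adjusted p = 0.117). LINC00346, a target of p53, had 31 and 20 counts in EV against 7 and 20 in TET1-CD libraries, a log2 fold change of -0.90 (SE 0.46, adjusted p = 0.204). The log2 fold change of LINC00346 was -0.40 without TET1-CD replicate 1 and -1.74 without TET1-CD replicate 2. Log2 fold changes of the other detected members ran from -0.26 (LINC00641) to 0.52 (LINC00511), with LINC00467 at 0.41, LINC00941 at 0.24 (adjusted p = 0.128, or 0.0199 without EV replicate 1), LINC01116 at 0.13, LINC00665 at 0.03, LINC00857 at -0.08 (0.18 by the ratio of mean FPKM) and LINC00662 at -0.13.

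Of the other abundant LINC genes, 2 are given here with their values, and neither passed the test. LINC00094, on the opposite strand from BRD3 and now named BRD3OS, had 960 and 780 counts in EV against 807 and 867 in TET1-CD libraries, a log2 fold change of -0.04 (SE 0.07, adjusted p = 0.749, and 0.015 by the ratio of mean FPKM). LINC00969, for which the files list 49 transcripts, had 564 and 393 counts in EV against 401 and 466 in TET1-CD libraries, a log2 fold change of -0.12 (SE 0.11, adjusted p = 0.480). The most abundant transcript of LINC00969 held 33.8% of its counts. Of hosts of small RNAs, SNHG20 (LINC00338) had a log2 fold change of -0.08 (SE 0.16, adjusted p = 0.786), and LINC00478, the host of let-7c and miR-99a, fell under the limit of 40 counts. Of the 81 genes, 24 had a single transcript in the files, and in the other 57 the most abundant transcript held a median of 74.1% of the counts.

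Genes close to the LINC genes were then examined. Within 100 kb of a LINC gene by the Start column, 114 other genes were tested and 3 were called (2.63%, against 3.77% of all genes), while 22 (19.3%) passed at an adjusted p under 0.05, against 19.7% of all genes. No gene was tested within this distance of 23 LINC genes. Besides CDR1, the called neighbours were PLCB2 and LIMS3, and neither LINC gene beside them was called. PLCB2, a phospholipase C gene near LINC00984, had 5 and 1 counts in EV against 14 and 15 in TET1-CD libraries (adjusted p = 0.0388), and passed the filter on low counts through the TET1-CD libraries, where it is high. LIMS3, near LINC01106, had 7 and 2 counts in EV against 10 and 47 in TET1-CD libraries (adjusted p = 0.0370), so that 1 library carried most of the difference. LIMS3 has near-identical copies among which the counts may be split. Neither CDR1 nor LIMS3 held 10 counts in both EV libraries. CDR1 and LIMS3 thus also passed the filter on low counts through the TET1-CD libraries, where they are high. LINC00984 itself had 4 and 10 counts in EV against 20 and 11 in TET1-CD libraries, and LINC01106 had 11 and 27 in EV against 8 and 10 in TET1-CD libraries, with adjusted p-values of 0.226 and 0.223.

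Of the 81 LINC genes, 17 (21.0%) had a 5′ end within 1 kb of that of a tested gene on the other strand, against 18 of the 533 other LINC genes (3.38%). Of these 17 partners, 10 were protein-coding genes, among them C1orf174, ICMT, ZC3H12A, PURA and SP5. In 2 cases both genes were detected LINC genes (LINC00115 with LINC01128, and LINC01116 with LINC01117), and each such pair counts for both members. No partner was called, against 3.77% of all genes. Of the 17 LINC genes, 1 (LINC00883) passed at an adjusted p under 0.05, against 19.7% of all genes. LINC00882, the partner of LINC00883 with a 5′ end 51 bases away, had 4 and 6 counts in EV against 13 and 12 in TET1-CD libraries (log2 fold change 1.31, SE 0.57, adjusted p = 0.141). It passed the filter on low counts through the TET1-CD libraries alone, where it is high. The direction was the same in both genes for 11 of the 17. These include the 2 pairs of LINC genes, each counted from both sides. Across the 17, the Spearman correlation of the log2 fold changes was 0.30 and Pearson's was 0.24, with the 2 pairs again entered from both sides. This is a description across genes measured in the same libraries.

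Of the 17 partners, 2 passed at an adjusted p under 0.05, against 19.7% of all genes, while their LINC gene did not. ATP2B1, a plasma membrane calcium pump gene, had 4283 and 3984 counts in EV against 2770 and 3057 in TET1-CD libraries (log2 fold change -0.49, SE 0.06, adjusted p = 4.06e-04), and LINC00936 beside it had a log2 fold change of 0.17 (SE 0.46, adjusted p = 0.841). CXorf40B had a log2 fold change of 0.25 (SE 0.08, adjusted p = 0.0450), and LINC00894 beside it one of -0.87 (SE 0.37, adjusted p = 0.127). Whether LINC gene and partner differed from each other was not tested. Within the body of a tested gene lay, in whole or in part, 21 LINC genes, 15 of them with a gene on the opposite strand.

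**Figure D5:**
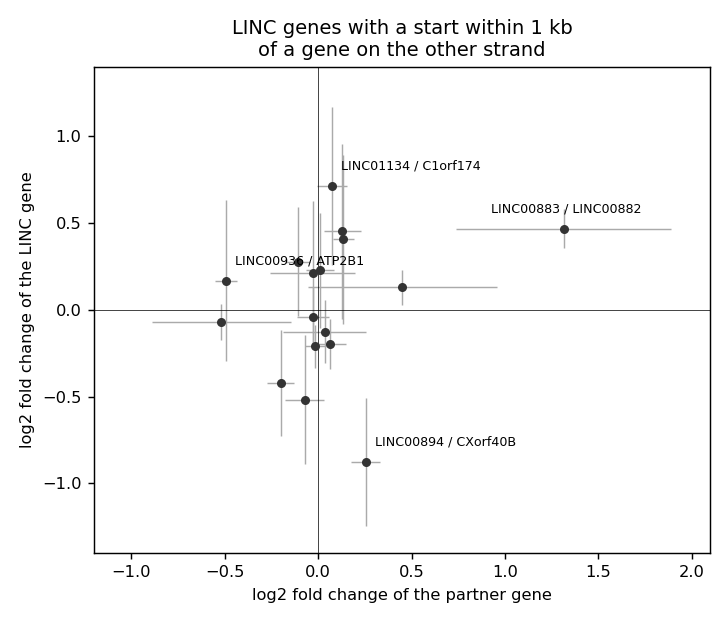
log2 fold change (TET1-CD against EV) of the 17 LINC genes with a 5′ end within 1 kb of that of a gene on the other strand (vertical) by that of the partner gene (horizontal), with error bars of 1 standard error. Most pairs lie within 0.5 of 0 on both axes, and LINC00883 with LINC00882 lies apart at 0.47 and 1.31.

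At the limit of 40 counts, the members with the lowest totals were LINC00601 with 42, LINC01155 with 43.2, LINC00337 with 44 and LINC00984 with 45. Just below it were LINC00478 with 38.0 and LINC00852, LINC00693 and LINC01060 with 36.0. Of LINC genes under 40 counts, 3 passed edgeR's filter and none was called. LINC00478, with 11 and 18 counts in EV against 4 and 5 in TET1-CD libraries, had a log2 fold change of -1.66 (SE 0.60, adjusted p = 0.0820). Among LINC genes with fewer than 40 counts, 40 were listed at 0 in both EV libraries and 27 at 0 in both TET1-CD libraries. Only LINC00839, at 0 in EV and with 5 counts in each TET1-CD library, exceeded 3 counts in both libraries of the other group, 3 counts being the floor that a listed 0 allows for counting error.

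LncRNAs without a LINC name were used for comparison. Of 50 such RNAs listed, 44 were in the files and 34 were tested, with 15 higher and 19 lower values and a median log2 fold change of -0.07. At an adjusted p under 0.05, 7 were higher and 4 lower, against 10.0% and 9.61% of all genes, and 3 of the 34 were called, all of them higher, against 2.72% of all genes. H19, an imprinted RNA, had 11 and 11 counts in EV against 57 and 56 in TET1-CD libraries (log2 fold change 2.36). UCA1, first described in urothelial carcinoma, had 333 and 331 counts in EV against 721 and 717 in TET1-CD libraries (log2 fold change 1.13). FENDRR had 0 and 2 counts in EV against 22 and 26 in TET1-CD libraries, and so passed the filter on low counts through TET1-CD alone. NEAT1, the scaffold of paraspeckles, was lower (log2 fold change -0.76, SE 0.06), with 3400 and 3124 counts in EV against 1772 and 2043 in TET1-CD libraries.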

How the data were processed

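For each of the 4 libraries, the authors aligned and quantified the reads and deposited expected counts (estimated numbers of fragments, not normalized) and FPKM (scaled to length and library size) for every transcript, with GRCh37 coordinates. The submitters' processing notes list cutadapt 1.9.1, HISAT2 2.0.1, HTSeq 0.6.1, DESeq2 and hg19. The program that gave the estimated counts, its annotation and its use of strand are not given in the sources used here. Expected counts and FPKM were summed per gene identifier, and counts were rounded. The 4 libraries were fitted with edgeR 4.0.16 in R 4.3.3 (glmQLFit, glmQLFTest, TMM, filterByExpr with a minimum of 10, no block), with Benjamini-Hochberg adjustment over all 14573 genes tested. Standard errors are the log2 fold change over the square root of F. TMM factors were between 0.993 and 1.005. The script was tested on simulated data.

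Alternatives were DESeq2 1.42.0, limma-voom (limma 3.58.1), RLE or library size scaling, other filters, a replicate block, each library left out, the ratio of mean FPKM, other limits on the total count and other distances. The LINC genes, lists and tests were chosen with earlier results of these data known. Genes named were the called LINC genes, the 6 with the highest mean CPM, detected members of the lists of small protein genes, RNAs with studied roles and hosts of small RNAs, neighbours of called genes, called neighbours and genes at the limit of 40 counts. Other genes, including the 7 that passed on adjusted p alone, were named after their values were seen. Gene classes came from GENCODE release 44 on GRCh37 and promoters from RefSeq on GRCh38.p14, with no coordinates converted. Intervals and floors cover counting error only.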

Additional observations from a re-analysis of the deposited data

How the results depend on the processing

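The number of LINC genes called was 3 with RLE scaling, with 10 counts in every library (64 LINC genes then tested) and with a limit of 20 on the total, and 4 with library size scaling, no filter and limma-voom, where LINC01096 was added. It was 2 with a limit of 100 and without the LINC genes that overlap a tested gene. DESeq2 called 1, LINC00942, beside 332 of 25160 genes. On adjusted p alone there were 10 (background 19.7%), and with an unadjusted p and a fold change of 2 there were 5 (background 4.89%). With 1 library left out, the genes called changed, the lone library of a group being taken to vary like the other group. LINC00942 was called each time. Not all genes called in these fits were higher in TET1-CD. LINC00704 was lower without TET1-CD replicate 2 (log2 fold change -1.11), and LINC01106 was lower without EV replicate 1. Called genes near LINC genes numbered 2 of 63 tested (3.17%) within 50 kb and 40 of 1096 (3.65%) within 1 Mb. With 1 library left out, the sign of 3 log2 fold changes near 0 turned. LINC00493 ranged from -0.028 (without EV replicate 1, and -0.026 without TET1-CD replicate 1) to 0.14, LINC00958 from -0.12 to 0.0039 (without TET1-CD replicate 1) and LINC00969 from -0.26 to 0.030 (without EV replicate 1), and the cause was not tested. By the ratio of mean FPKM, which gives no p, the sign turned for 3 of 27 LINC genes: LINC00857 (0.18), LINC00094 (0.015) and LINC00958 (0.00098). Over these 27 genes and 296 values with a test, 261 kept direction and side of the threshold, 29 lost the threshold, 2 gained it and 4 turned sign.

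With the replicate block, 4 LINC genes were called, with LINC01096 added. Deviations of same-numbered libraries from their group means correlated at 0.007 over all genes tested, and 2 pairs cannot show that the numbers mark a pairing.

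The median standard error of the log2 fold change was 0.24 for the LINC genes, of which 28 had fewer than 100 counts in all.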
